A study of Mus musculus with 9 samples.

Results

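The genes described here build the epidermal barrier and the junctions between keratinocytes. They were taken from a list of 44 genes of epidermal differentiation, the cornified envelope, desmosomes and keratinocyte regulation, matched by the gene symbol in the array's platform annotation. A gene was kept where at least 1 of its probes had a detection p under 0.05 on 4 or more of the 9 arrays. Of the 44 genes, 34 had a named probe and all 34 passed this filter, out of 10096 genes measured in all. The other 10 (Dsp, Dsg1a, Dsg3, Dsc2, Dsc3, Perp, Flg, Sprr2a, Ehf and Epcam) had no probe under these symbols in the annotation used and were not analysed here. Desmoplakin and most desmosomal cadherins are thus missing from what follows.

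Expression was read on Illumina BeadChip arrays of 1 colour. The tissue, labelled as B16 tumour environment (B16 is a transplantable mouse melanoma), was taken 14 days after inoculation into C57/Bl6 mice 8 weeks of age. The PBS group has 5 samples from mice given phosphate-buffered saline. The PC61 group has 4 samples from mice given PC61, a CD25-binding antibody commonly used for removing regulatory T cells, and the comparison asks how tumour tissue differs when those cells are targeted. All mice carried the same tumour line and no genotype differs between the groups. The labels give neither the antibody's dose and timing nor how much skin was taken with the tumour, and beyond a replicate number nothing says that the samples are separate mice, so a p-value reflects only sample-to-sample spread, which may be technical.

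The outer epidermis is made by keratinocytes that leave the basal layer, stop dividing and turn into flat, dead, cross-linked cells. Transglutaminases weld precursor proteins such as involucrin, loricrin and the small proline-rich proteins into a cornified envelope, while desmosomes hold neighbouring cells together through plakophilins, plakoglobin and plakins. Factors such as p63, Ovol1 and the grainyhead-like proteins direct the programme, and membrane-bound proteases and their inhibitors control shedding and barrier formation. In skin many of these genes serve as markers of epidermis and hair follicle. Whether each is confined to those cells in this tissue was not tested.

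Each array detected between 18572 and 20742 probes, and the raw median intensity ran from 21.5 to 41.6. Of the 16 measured melanocyte and melanoma genes all were detected on the 5 PBS arrays and 12, Dct, Tyrp1 and Pmel among them, on all 9 arrays. Tyr, Mc1r and Slc45a2 were detected on 3 of the 4 PC61 arrays and Mlph on 2. Foxp3, the defining gene of regulatory T cells, measured 9.05 ± 0.24 (log2 intensity) in the PBS samples (SD, n = 5). In the PC61 samples it measured 8.73 ± 0.18 (SD, n = 4), a difference of -0.32 that was not past the threshold (limma adjusted p = 0.203). Over all genes 26.5% were called at an adjusted p under 0.05, 15.4% higher and 11.2% lower in PC61. With cyclic loess in place of quantile normalization, 1831 genes were called higher and 858 lower, against 1552 and 1127. A pair of arrays stood at the ends of most values below, PBS replicate 4 and PC61 replicate 4, and the counts over gene groups are also given without them.

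Promoters of 6 cornified envelope genes and of a neighbouring connexin pair are shown first, because the former hold letters that recur among the genes and the latter belong to genes that lie side by side and gave different values. Each line gives 120 bases before the RefSeq transcription start (build GRCm38.p6), 5′ to 3′ on the gene's strand. Capitals mark matches to 3 motifs. The TATA box was searched as TATAAA on the gene's strand only, the AP-1 motif as TGANTCA on both strands and the KLF motif as GGGNGNGGC on both strands.
Lor (chr3:92083143-92083262, minus strand): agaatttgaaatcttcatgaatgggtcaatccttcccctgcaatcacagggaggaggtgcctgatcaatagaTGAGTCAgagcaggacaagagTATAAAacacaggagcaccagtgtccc
Ivl (chr3:92573736-92573855, minus strand): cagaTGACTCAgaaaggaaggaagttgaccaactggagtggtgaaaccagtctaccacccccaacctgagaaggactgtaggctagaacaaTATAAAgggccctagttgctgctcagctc
Sprr1a (chr3:92485882-92486001, minus strand): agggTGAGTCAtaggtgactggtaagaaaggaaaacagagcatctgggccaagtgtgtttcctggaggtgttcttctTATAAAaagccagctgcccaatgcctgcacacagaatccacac
Sprr1b (chr3:92438780-92438899, minus strand): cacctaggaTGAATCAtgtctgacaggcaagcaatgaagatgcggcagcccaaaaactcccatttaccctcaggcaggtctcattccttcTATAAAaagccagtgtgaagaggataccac
Krtdap (chr7:30787785-30787904, plus strand): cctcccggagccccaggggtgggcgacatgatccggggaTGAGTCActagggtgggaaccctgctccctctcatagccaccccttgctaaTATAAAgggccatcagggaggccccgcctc
Tgm3 (chr2:130012220-130012339, plus strand): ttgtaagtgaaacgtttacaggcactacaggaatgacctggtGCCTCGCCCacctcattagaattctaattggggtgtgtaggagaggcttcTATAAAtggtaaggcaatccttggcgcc
Gjb2 (chr14:57104703-57104822, minus strand): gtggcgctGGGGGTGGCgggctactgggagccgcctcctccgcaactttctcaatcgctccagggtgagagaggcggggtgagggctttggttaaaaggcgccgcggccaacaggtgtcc
Gjb6 (chr14:57133612-57133731, minus strand): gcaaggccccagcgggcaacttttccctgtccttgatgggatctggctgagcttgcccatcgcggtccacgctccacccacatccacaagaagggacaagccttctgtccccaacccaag

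Lor, Ivl, Sprr1a and Sprr1b lie on chromosome 3, where many cornified envelope genes are clustered. In the table of promoters, 22 of the 34 genes had a window from 250 bases before to 50 bases after the start, and the first window listed was used for genes with several. An AP-1 match was present in 8 of the 22 windows (36.4%) and in 7.93% of all 27025 windows. A TATA box match was present in 8 of 22 as well, against 8.88% of all windows. Both motifs were found together in Ivl, Krtdap, Lor, Sprr1a and Sprr1b, 5 of 22 windows (22.7%), against 1.07% of all windows. The grainyhead motif AACCNGTT (both strands) was found in Gjb6 and Sfn, outside the stretches printed, against 2.01% of all windows. KLF matches were in 7 of 22 windows (31.8%) and in 25.8% of all. A match describes the letters of the window and does not show a bound site.

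Nearly all measured barrier and junction genes were higher in PC61. Of the 34 genes 30 rose and 0 fell (88.2% called higher, against 15.4% of all genes tested), and each of the 30 rose at least 2-fold, which 10.8% of all genes did. The median difference was 1.95 on the log2 scale (3.87-fold), against -0.05 over all genes tested. PC61 and PBS arrays did not overlap in 20 of the 34 genes, against 11.3% of all genes that were higher without overlap. The 4 genes not past the threshold (Dmkn, Lor, Jup and Gjb2) had values of 1.58, 1.11, 1.25 and 0.59. In bulk tissue more epidermal cells and more RNA per cell cannot be told apart. Of the 34 genes 31 were detected on all 9 arrays, and all 34 on at least 4 of the 5 PBS arrays, so none needed the PC61 arrays to pass the filter on dim probes, although probes were named only if they passed the authors' own filter.

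**Figure D1:**
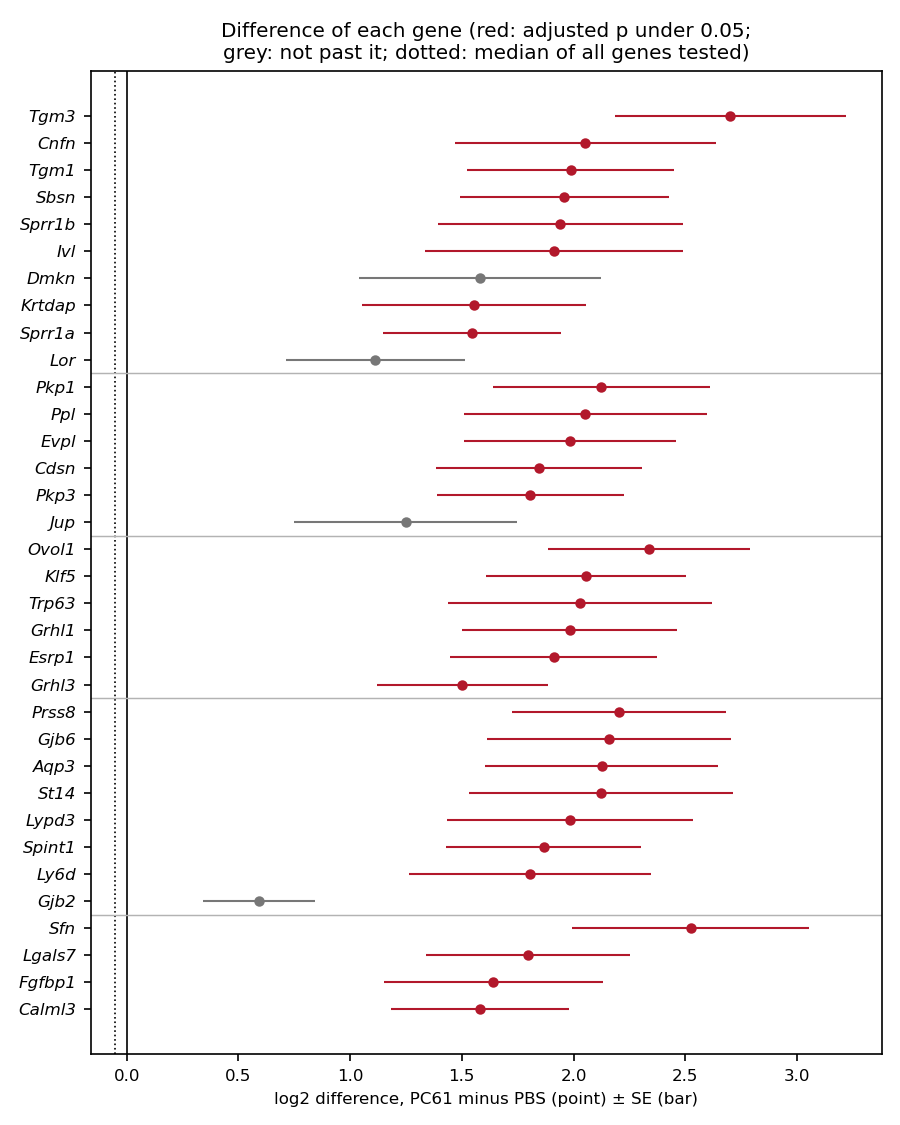
Log2 difference of each of the 34 measured genes, PC61 minus PBS, as a point with its limma standard error as a bar, ordered within role groups. The 30 red points have an adjusted p under 0.05, the 4 grey points (Dmkn, Lor, Jup and Gjb2) do not, and the dotted line is the median of all genes tested at -0.05.

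Among the cornified envelope genes 8 of 10 measured rose, and the differences of all 10 ran from 1.11 to 2.70. Tgm3, a transglutaminase that cross-links envelope proteins in epidermis and hair, had log2 intensities of 6.53, 6.86, 7.55, 4.44 and 6.67 on PBS replicates 1 to 5 and 9.83, 8.86, 8.82 and 8.95 on PC61 replicates 1 to 4. Every PC61 array lay above every PBS array, PBS replicate 4 was the lowest and PC61 replicate 1 the highest. The difference was 2.70 ± 0.52 (SE, 6.51-fold, limma adjusted p = 0.0122). Tgm3 was detected on 4 of the 5 PBS arrays, so its lowest PBS value is near background.

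Tgm1, the membrane-bound transglutaminase of keratinocytes, was at 7.75, 7.17, 8.36, 6.38 and 6.98 in PBS and at 8.89, 8.48, 9.30 and 10.60 in PC61. Its groups did not overlap either, but the gap was narrow (0.11) between PC61 replicate 2 and PBS replicate 3. Tgm1 rose by 1.99 ± 0.46 (SE, 3.96-fold, limma adjusted p = 0.0161).

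Ivl encodes involucrin, an early scaffold of the envelope. Its log2 intensity was 10.26, 9.85, 10.24, 7.96 and 9.96 in PBS and 11.42, 10.24, 11.52 and 13.08 in PC61. PC61 replicate 2 fell among the PBS values, while PC61 replicate 4 stood 1.56 above the next array. The difference was 1.91 ± 0.58 (SE, adjusted p = 0.0333), and it was 1.41 without PC61 replicate 4.

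Loricrin (Lor), the main protein of the mature envelope, was measured at 13.58, 12.93, 13.85, 11.73 and 13.46 in PBS and at 14.23, 13.57, 14.42 and 14.68 in PC61. PC61 replicate 2 lay below PBS replicates 1 and 3, so the groups overlapped. Its value of 1.11 ± 0.40 (SE, adjusted p = 0.0599) was the smallest of the 10 envelope genes. It passed with cyclic loess and with array weights, and it was called in 2 of the 9 fits that left out 1 array.

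The small proline-rich genes Sprr1a and Sprr1b, whose proteins bridge other envelope proteins, rose by 1.55 ± 0.40 and 1.94 ± 0.55 (SE, adjusted p = 0.0213 and 0.0273). These are members of a multigene family, and whether a probe separates its copies was not tested. Sprr1b was highest on PC61 replicate 1 (11.08) and not on replicate 4 (10.31). The annotation also names a probe for Sprr2a1, for which RefSeq gives Sprr2a as an older symbol. Chosen after its value was seen and not counted among the 34, Sprr2a1 was at 6.49 ± 0.23 in the PBS samples (SD, n = 5) and at 6.26 ± 0.40 in the PC61 samples (SD, n = 4), a difference of -0.23 (adjusted p = 0.445).

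Cnfn, which encodes the envelope protein cornifelin, rose by 2.05 ± 0.58 (SE, adjusted p = 0.0279). Sbsn, Dmkn and Krtdap encode secreted proteins of the suprabasal layers and are direct neighbours on chromosome 7, with 0 protein-coding genes between them in the RefSeq table. Sbsn rose by 1.96 ± 0.47 (adjusted p = 0.017) and Krtdap by 1.55 ± 0.50 (adjusted p = 0.0412). Dmkn was at 1.58 ± 0.54 (adjusted p = 0.0502). Its 3 probes gave 1.57, 1.58 and 1.59, and in a fit over all probes 1 of them was past the threshold (adjusted p = 0.042).

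Of the 12 desmosome genes listed only 6 were measured, and 5 of them rose. Pkp1, a plakophilin that ties desmosomal cadherins to the keratin cytoskeleton, was at 10.28, 9.86, 10.08, 7.82 and 9.39 in PBS and at 11.55, 10.74, 11.69 and 12.45 in PC61. The PC61 arrays all lay above the PBS arrays, with PBS replicate 4 far below the other PBS values. Pkp1 rose by 2.12 ± 0.49 (SE, 4.36-fold, adjusted p = 0.0154), and its relative Pkp3 by 1.81 ± 0.42 (adjusted p = 0.016).

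The plakins Ppl and Evpl, which link desmosomes and the envelope to keratin filaments, rose by 2.05 ± 0.54 (adjusted p = 0.0226) and 1.98 ± 0.47 (adjusted p = 0.0173). Of the 3 Ppl probes, 2 gave 2.02 and 2.05, and a dim one that was detected on 1 of the 5 PBS arrays gave 0.83. Cdsn, whose product corneodesmosin holds the outermost cells together until they are shed, rose by 1.84 ± 0.46 (adjusted p = 0.0195), and its 3 probes gave 1.84, 2.14 and 2.18.

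Jup, plakoglobin, is shared by desmosomes and adherens junctions. It was dim, at 5.34, 5.52, 5.03, 4.44 and 4.97 in PBS and at 6.13, 4.82, 6.30 and 7.97 in PC61, and was detected on 4 of 5 PBS and 3 of 4 PC61 arrays. PC61 replicate 2 lay inside the PBS range and PC61 replicate 4 stood 1.67 above the next array. The difference of 1.25 ± 0.50 (SE, adjusted p = 0.0823) was 0.69 without PC61 replicate 4.

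All 6 measured regulators of keratinocyte identity rose. Ovol1, a zinc-finger factor that acts as keratinocytes leave the cell cycle, was at 7.63, 6.70, 7.76, 5.58 and 6.76 in PBS and at 9.05, 8.40, 9.32 and 10.12 in PC61. Its lowest PC61 array was 0.65 above its highest PBS array. Ovol1 rose by 2.34 ± 0.45 (SE, 5.06-fold, adjusted p = 0.0122), the largest difference of the 6.

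Trp63 encodes p63, the factor that maintains stratified epithelia. Its values were 9.60, 8.33, 9.39, 7.20 and 8.86 in PBS and 10.37, 9.43, 10.64 and 12.37 in PC61. PC61 replicate 2 fell below PBS replicate 1, and PC61 replicate 4 stood 1.73 above the next array, the widest such gap among the 34 genes. Trp63 rose by 2.03 ± 0.59 (SE, adjusted p = 0.03), and by 1.47 without PC61 replicate 4, where it was not past the threshold.

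Klf5, a factor of the basal layer, rose by 2.06 ± 0.45 (SE, adjusted p = 0.014), and Grhl1, a grainyhead-like factor of barrier formation, rose by 1.98 ± 0.48 (adjusted p = 0.0182). Its relative Grhl3 rose 2.83-fold (adjusted p = 0.0203). Esrp1, which controls epithelial splicing, rose by 1.91 ± 0.46 (adjusted p = 0.0177). In Klf5, Grhl1, Grhl3 and Trp63 the value on PC61 replicate 4 was more than 1 log2 unit above every other array. The mean of the 6 regulators on that array was 3.16 above the PBS mean, and the mean of the 10 envelope genes was 2.50 above it. That contrast was read from the data and was not tested.

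Surface proteins, channels and proteases included 8 measured genes, of which 7 rose. Prss8, the membrane-anchored protease prostasin that is needed for the skin barrier, was at 8.27, 7.12, 8.85, 6.23 and 7.14 in PBS and at 9.84, 8.93, 9.86 and 10.27 in PC61. The groups were separated by 0.08, between PC61 replicate 2 and PBS replicate 3. Prss8 rose by 2.20 ± 0.48 (SE, 4.61-fold, adjusted p = 0.014). St14, the protease matriptase that acts in the same cascade, rose by 2.12 ± 0.59 (adjusted p = 0.0259), and Spint1, an inhibitor of matriptase, by 1.87 ± 0.44 (adjusted p = 0.0164). Protease and inhibitor genes were thus higher in the same samples.

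Gjb2 and Gjb6 encode 2 connexins, subunits of gap junction channels, and are direct neighbours on chromosome 14. Gjb6 was at 9.49, 8.64, 9.47, 6.66 and 8.73 in PBS and at 10.65, 9.94, 10.72 and 11.72 in PC61. Gjb2 was at 12.64, 12.52, 13.04, 12.98 and 13.71 in PBS and at 13.66, 13.40, 13.33 and 13.88 in PC61. Gjb6 showed no overlap between the groups, while for Gjb2 the highest PBS array (replicate 5) exceeded 3 of the 4 PC61 arrays.

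Gjb6 rose by 2.16 ± 0.55 (SE, 4.47-fold, adjusted p = 0.0201). Gjb2 had a value of 0.59 ± 0.25 (SE, adjusted p = 0.0979), the smallest of the 34, and its 3 probes gave 0.59, 0.62 and 0.78. In Gjb2 PBS replicate 4 was at the PBS mean, whereas it was the lowest array in the other 33 genes. The difference between the paired genes was not tested, since they were picked for it.

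Aqp3, a channel for water and glycerol in basal keratinocytes, rose by 2.13 ± 0.52 (SE, adjusted p = 0.0185). The lipid-anchored surface proteins Lypd3 and Ly6d rose by 1.98 ± 0.55 (adjusted p = 0.0257) and 1.81 ± 0.54 (adjusted p = 0.0326). The PC61 and PBS arrays overlapped in Lypd3, Ly6d and St14 and did not in Aqp3, Spint1 and Prss8.

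The remaining 4 genes encode secreted and cytoplasmic keratinocyte proteins, and all rose. Sfn, the keratinocyte protein stratifin, was at 10.01, 8.96, 10.85, 7.82 and 9.39 in PBS and at 12.20, 11.06, 11.83 and 12.63 in PC61. Even the lowest PC61 array, replicate 2, was 0.21 above the highest PBS array. Sfn rose by 2.52 ± 0.53 (SE, 5.75-fold, adjusted p = 0.0137), the largest difference after Tgm3.

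Lgals7, an abundant galectin of stratified epithelium, was at 12.83, 12.15, 13.06, 10.51 and 11.78 in PBS and at 13.78, 13.24, 14.21 and 14.22 in PC61. There was no overlap, and PC61 replicates 3 and 4 were nearly equal. Lgals7 rose by 1.80 ± 0.46 (SE, adjusted p = 0.0204), and its 3 probes gave 1.80, 1.84 and 1.85. Calml3, a calmodulin-like protein of epithelium, rose by 1.58 ± 0.40 (adjusted p = 0.02), and Fgfbp1, a secreted carrier of fibroblast growth factors that was detected on 4 of 5 PBS arrays, by 1.64 ± 0.49 (adjusted p = 0.0326).

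**Figure D2:**
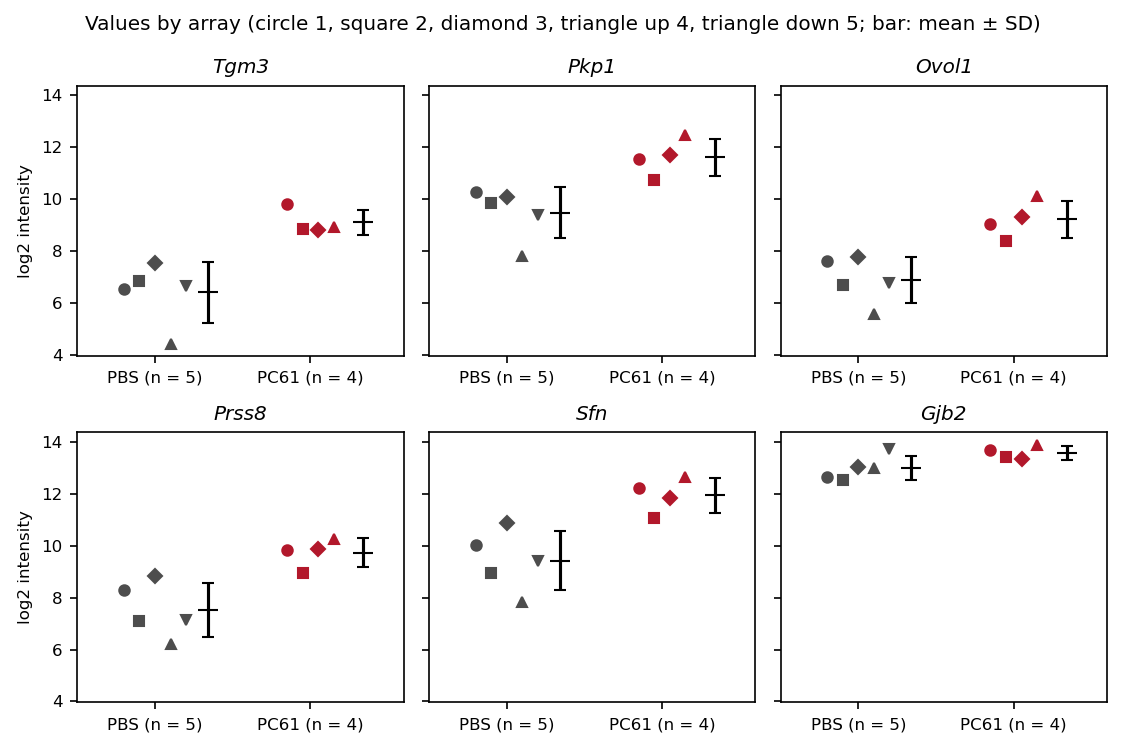
Log2 intensity of 6 genes on each array, PBS in grey (n = 5) and PC61 in red (n = 4), with a marker shape for each replicate number and a bar for mean ± SD. In Tgm3, Pkp1, Ovol1, Prss8 and Sfn every PC61 array lies above every PBS array, and in Gjb2 the groups overlap.

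The 34 genes ordered the arrays in much the same way. PBS replicate 4 was the lowest array in 33 genes and PC61 replicate 4 the highest in 31. The exceptions at the top were Tgm3 and Sprr1b, highest on PC61 replicate 1, and Calml3, highest on PC61 replicate 3. Within PC61, replicate 2 was the lowest array in 32 genes, and within PBS, replicate 3 was the highest in 22 and replicate 1 in 10. As a mean over the 34 genes, relative to the PBS mean, PBS replicates 1 to 5 were at 0.62, -0.08, 0.87, -1.38 and -0.03, and PC61 replicates 1 to 4 at 1.79, 1.02, 1.96 and 2.72. The highest PBS array, replicate 3, and the lowest PC61 array, replicate 2, were thus close to each other.

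**Figure D3:**
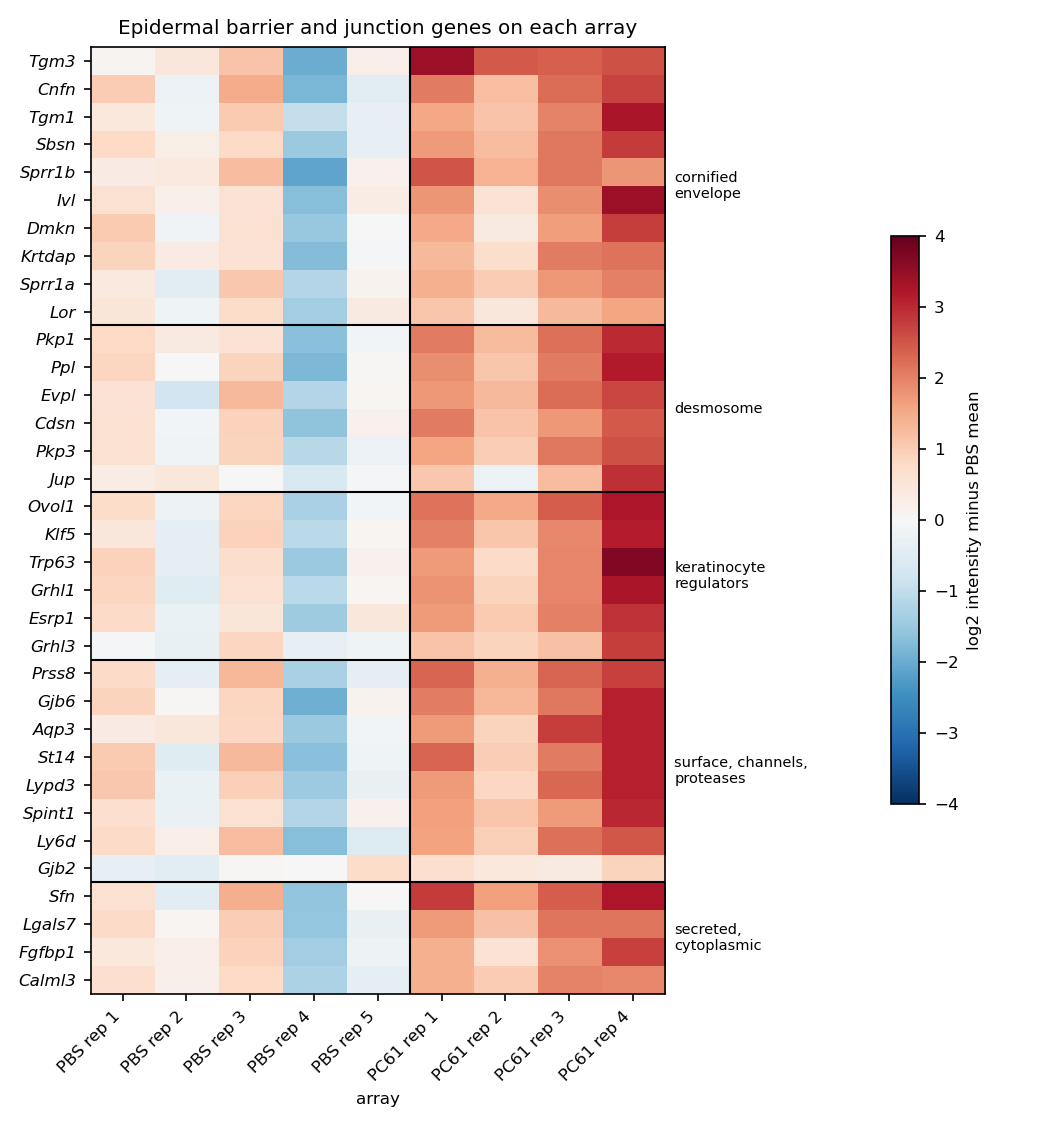
Log2 intensity minus the PBS mean for the 34 genes (rows, by role) on each of the 9 arrays (columns), blue below and red above the PBS mean. PBS replicate 4 is the lowest array in 33 rows and PC61 replicate 4 the highest in 31, and Gjb2 shows little of either.

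Calls depended on single arrays more than values did. When each array was left out in turn, 8 of the 34 genes kept an adjusted p under 0.05 in all 9 fits, and these were Tgm3, Tgm1, Pkp1, Ovol1, Klf5, Prss8, Spint1 and Sfn. They make up 23.5% of the 34, and 4.97% of all genes were called higher in all 9 fits. Another 13 lost it only without PC61 replicate 3, where their adjusted p ran from 0.0508 to 0.0626. The other 9 called genes (Ivl, Sprr1b, Cnfn, Krtdap, Trp63, Ly6d, Lypd3, St14 and Fgfbp1) lost it without any 1 of 3 to 6 arrays, and the highest adjusted p of each ran from 0.0666 to 0.116.

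Without PC61 replicate 3 the count was 8 of 34, while 5.22% of all genes were called higher in that fit. The median difference of the 34 genes was then 1.91, close to the 1.95 of all arrays. Without PBS replicate 4 the count was 25 and the median 1.58, where 9.54% of all genes were called higher. Without PC61 replicate 4 the count was 22, against 11.4% of all genes. Without both the count was 23 (67.6%) and the median 1.26, where 9.11% of all genes were called higher. The last setting was chosen after seeing the data. In all of these fits 0 of the 34 genes were called lower.

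In the authors' deposited table, 30 of the 34 probes used here had a Benjamini-Hochberg value under 0.05 and a PC61 to PBS ratio above 1, and 0 had one below 1. That table comes from the same 9 arrays, and the share over all its probes was not counted. A refit here on its intensities called 15.1% of all genes higher. The same table put 46 of all 54 probes of these genes past that value as higher. Ratios in the authors' deposited table ran from 1.46 for Gjb2 to 5.42 for Tgm3. The 14 genes with several detected probes were covered by 34 probes, all above 0.

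Further genes of the same programmes, in 7 lists chosen with earlier results of these data known, were mostly higher as well. Of 147 listed genes 109 were measured, 77 rose (70.6%, against 15.4% of all genes) and 0 fell (against 11.2%), with a median of 1.51. Of the 77 genes 4 (Lce3b, Ocln, Nectin4 and Marveld3) were detected on fewer than 4 PBS arrays and passed the filter only with the help of the PC61 arrays where they are high, so they lend no support, and 73 of the other 101 rose. Leaving out PC61 replicate 3 cut the count of 77 to 24, where 5.22% of all genes were called higher. Leaving out PBS replicate 2, 4 or 5 gave 48, 51 and 42, and leaving out PC61 replicate 1 gave 50. In these fits 10.8%, 9.54%, 8.59% and 10.6% of all genes were called higher. The count was 44, with a median of 0.97, without PBS replicate 4 and PC61 replicate 4 together (9.11% of all genes).

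In the list of adherens and tight junctions 12 of 16 rose, against 15.4% of all genes. The count was 9 of 13 when Ocln and Nectin4 (each detected on 1 of 5 PBS arrays) and Marveld3 are set aside. The genes with the smallest p were Cdh3, the placental cadherin of basal keratinocytes (2.37 ± 0.39, SE, adjusted p = 0.0122), Cldn4, a claudin (1.94 ± 0.38), and Marveld3, a tight junction protein detected on 2 of 5 PBS arrays (1.43 ± 0.31). The catenins were mixed. Ctnnd1 rose by 0.71 ± 0.21 (SE, adjusted p = 0.0303), while Ctnnb1 and Ctnna1 were at -0.22 (adjusted p = 0.394) and 0.72 (adjusted p = 0.0694).

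In the keratin list 9 of 16 measured genes rose (against 15.4% of all genes). Krt80 was at 2.23 ± 0.38, Krt16 at 1.92 ± 0.44 and the basal keratin Krt5 at 2.40 ± 0.56 (SE, adjusted p from 0.0122 to 0.0166). Among those not past the threshold were Krt1 (2.04, limma adjusted p = 0.0565), Krt7, Krt8, Krt18 and Krt19. Further cornified envelope genes rose in 18 of 22, among them Lce3c (2.28 ± 0.51), Rptn, which encodes repetin (2.11 ± 0.49), and Sprr2h (1.81 ± 0.44), each detected on 4 of the 5 PBS arrays. Lce and Sprr genes form families of near-identical copies, so the identity behind a probe is uncertain. In the list of barrier lipids and skin proteases 14 of 20 rose, against the same 15.4% of all genes. Among them were Alox12b, a lipoxygenase of the lipid barrier (1.72 ± 0.37), Sult2b1, a cholesterol sulfotransferase (2.22 ± 0.49), and the kallikrein Klk6 (1.85 ± 0.44). Without PC61 replicate 3 the counts of these lists, in the order given, were 1, 2 and 2 (5.22% of all genes). Without PC61 replicate 2 they were 12, 19 and 16 (19.7% of all genes).

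For the lists that follow, the share of all genes called higher was again 15.4%. The hemidesmosome and basement membrane list had 8 of 11 genes higher, led by Lamb3 (2.04 ± 0.36), Itga3 (1.59 ± 0.33) and Col17a1 (2.29 ± 0.49), which anchor basal keratinocytes. Among further epidermal regulators 15 of 20 rose, with Cebpb at 1.30 ± 0.23, Notch1 at 1.61 ± 0.28 and Dlx3, a homeobox factor, at 2.55 ± 0.49. The further desmosome list had only 1 of 4 genes higher (25%) and a median of 0.81. The gene was Dsc1, a desmocollin of the upper epidermis (1.72 ± 0.38, adjusted p = 0.0141). Dsg2 and Pkp4 were at 1.31 (adjusted p = 0.0795) and -0.32 (adjusted p = 0.212).

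**Figure D4:**
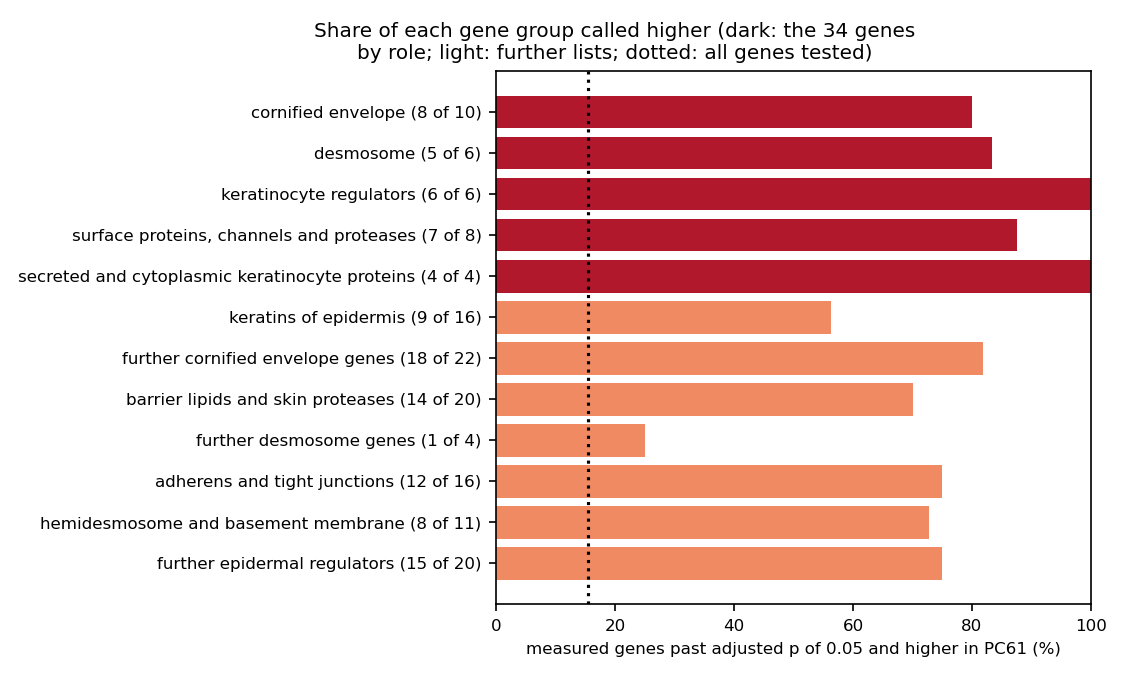
Share of measured genes in each group that were past an adjusted p of 0.05 and higher in PC61, in percent, with the 34 genes by role in dark bars and 7 further epidermal lists in light bars. The dotted line marks the 15.4% of all genes tested, and the shares run from 25% (1 of 4 further desmosome genes) to 100% (regulators, 6 of 6, and secreted and cytoplasmic proteins, 4 of 4).

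Markers of other tissues moved in the same samples, in which 15.4% of all genes were called higher. In the hair follicle and sebaceous gland list 21 of 22 measured genes rose. Lef1 and Lhx2, detected on 0 and 1 of the 5 PBS arrays, passed the filter through PC61, and 19 of the other 20 rose. The list's mean relative to PBS ran from -1.14 to 0.63 in PBS and from 1.17 to 2.17 in PC61. The count was 9 without PC61 replicate 3. Skeletal muscle genes rose in 20 of 21 cases, 1 of them (Casq1) detected on 1 of 5 PBS arrays, with means from -0.74 to 0.40 in PBS and from 1.10 to 2.60 in PC61. Fibroblast genes rose in 6 of 13, with means from -0.85 to 0.43 and from 0.47 to 1.39. Leaving out PC61 replicate 3 gave a fibroblast count of 1, PBS replicate 5 or PC61 replicate 1 gave 2, and PBS replicate 4 gave 3. The adipocyte list had 3 of 8 higher, with means from -0.86 to 1.38 and from 0.91 to 2.06. Its count was 0 without PBS replicate 4, PBS replicate 5 or PC61 replicate 3, 1 without PBS replicate 1 or PC61 replicate 1, 5 without PC61 replicate 2 and 7 without PBS replicate 2. Without PBS replicate 4 and PC61 replicate 4 together, 18 hair follicle, 17 muscle, 5 fibroblast and 0 adipocyte genes were called higher.

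Melanocyte and melanoma genes went the other way, with 6 of 16 lower (11.2% of all genes were called lower), means from -0.32 to 0.37 in PBS and from -4.22 to -0.31 in PC61. The lowest of these means was on PC61 replicate 4, the array highest in 31 of the 34 barrier and junction genes, and the highest was on PBS replicate 4, the array lowest in 33. Leaving out PC61 replicate 3 gave a count of 0, and leaving out PC61 replicate 2 gave 15. With PBS replicate 4 left out it was 2, and with PBS replicate 1, 2 or 5 left out it was 3. With PC61 replicate 4 left out it was 8. The list's median was -1.83 with all arrays and -1.04 without PC61 replicate 4.

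Proliferation genes were lower in 8 of 14 cases, against the same 11.2% of all genes, with means from -0.06 to 0.08 and from -1.59 to -0.30. Their count was 1 without PC61 replicate 3 and 13 without PC61 replicate 2. Pan T cell genes rose in 1 of 9 (11.1%, below the 15.4% of all genes called higher), with means from -0.37 to 0.49 and from -0.85 to 0.87. The T cell count was 1 without PC61 replicate 2 or 4 and 0 in the other 7 fits that left out 1 array. In the list of stress response genes 6 of 11 rose (against 15.4%) and 1 fell (against 11.2%), with means from -0.41 to 0.29 and from 0.30 to 0.86. Of those 6, Fosb and Hspa1b were detected on 3 and 2 of the 5 PBS arrays, and leaving out PC61 replicate 3 gave a count of 3. With PBS replicate 4 and PC61 replicate 4 both left out, 7 melanocyte and 5 proliferation genes were called lower, and 1 T cell and 4 stress response genes higher. The part of these markers in the barrier and junction result was not tested.

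**Figure D5:**
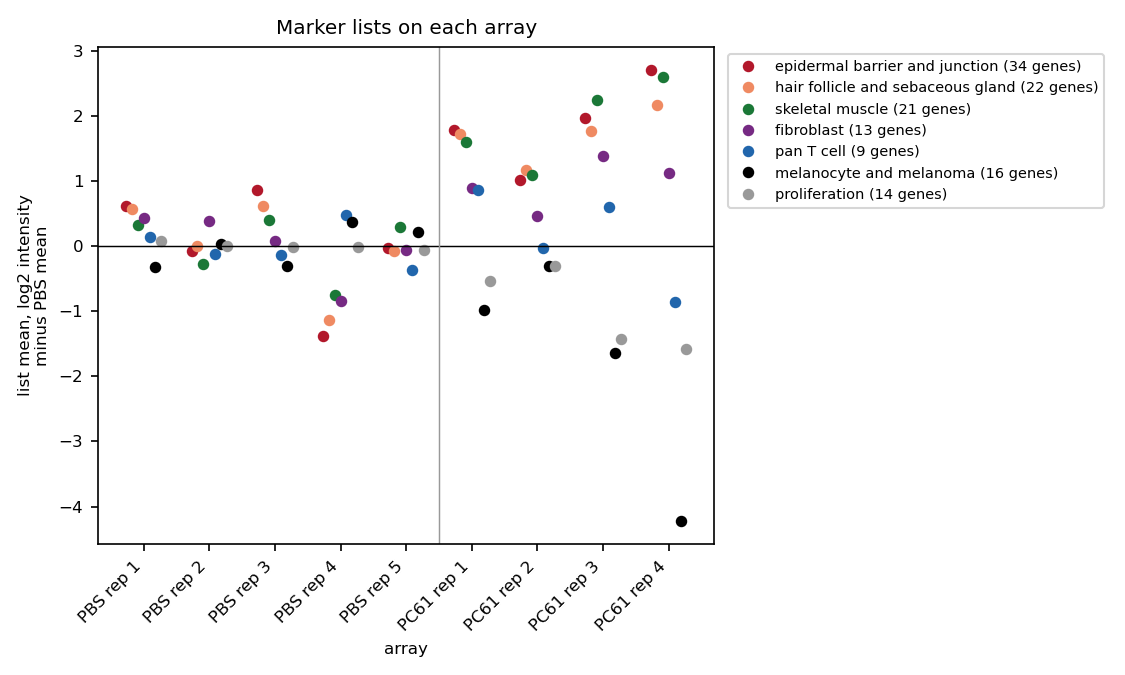
Mean log2 intensity of 7 gene lists on each array relative to their PBS mean, with 1 point for each list and array. On PC61 replicate 4 the 34 barrier and junction genes are at 2.72 and the melanocyte list at -4.22, and on PBS replicate 4 they are at -1.38 and 0.37.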

How the data were processed

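RNA from 9 samples, 5 PBS and 4 PC61, was isolated with Trizol and RNeasy and labelled with biotin, per the labels' protocols. The deposited raw table holds a probe intensity on a linear scale and a detection p-value for 45273 probes, per the file headers. On every array 1.01 was the lowest intensity, and background handling before deposit is not given in the sources used. The authors' second table holds quantile-normalized intensities of 17382 probes, and, per the file headers, a ratio of group means, a test statistic (a score here), a p-value and its Benjamini-Hochberg adjustment. Recomputed quantile normalization gave its values to within 0.109%, and the series' value table repeated them (largest difference 0).

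Of the raw probes, 3 with a detection p outside 0 to 1 were left out. Intensities were corrected with normexp on the detection p-values (offset 16), quantile normalized and put on the log2 scale with neqc of limma 3.58.1 in R 4.3.3, which shrinks the fold changes of dim probes. A probe was kept when 4 or more arrays had a detection p under 0.05 (20190 probes). Names came from the platform annotation of the authors' probes (14942 with 1 symbol, 8 with several, 2432 with none), updated by gene identifier through RefSeq, and the brightest probe stood for a gene. Levels of different probes cannot be set against each other. Groups were compared with lmFit and eBayes, two-sided, with Benjamini-Hochberg adjustment over 10096 genes and a threshold of 0.05. Each error of a difference is limma's standard error. The procedure was tested on simulated data. The number of arrays limits the precision.

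The 34 genes, the role groups and the further lists were chosen with earlier results of these data known, so lists are described by counts and medians without a test. From each further epidermal list up to 3 genes with the smallest p were named, and other genes named as examples were chosen after their values were seen. Alternatives changed the normalization, background correction, filter, probe choice and weights, used the authors' values, added the replicate number as a block and left out each array. Samples with the same replicate number did not deviate together (correlations of -0.24, 0.01, 0.00 and -0.33 for numbers 1 to 4). No label says that the numbers mark pairs, so no pairing was used, though these correlations cannot exclude a shared batch.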

Additional observations from a re-analysis of the deposited data

Results flagged for a closer look

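In 3 of the 34 genes an array stood apart from its group by Dixon's ratio of gap to range, in 4 of 68 groups examined, and chance flags about 1 in 20. Ivl on PBS replicate 4 was at 7.959, with the next PBS array at 9.848. Tgm3 on PC61 replicate 1 was at 9.83, with the next PC61 array at 8.945. Grhl3 had a high array in both groups, PBS replicate 3 at 6.432 (next 5.515) and PC61 replicate 4 at 8.333 (next 6.755).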

How the results depend on the processing

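Of the 34 genes, between 28 and 34 were called higher with the other normalizations, background corrections, filters, weights, probe choices and the authors' values, 28 of them out of 31 measured when all 9 arrays had to be detected, and 0 were called lower. The share of all genes called higher ran from 12.6% (all 9 arrays detected) to 22.5% (array weights, where all 34 were called) in those settings. The median difference stayed between 1.26 (without PBS replicate 4 and PC61 replicate 4) and 2.21 (without PC61 replicate 2). Leaving out 1 array gave from 8 to 33 higher genes among the 34 and from 24 to 88 among the 109 further epidermal genes (77 with all arrays), where the share of all genes called higher ran from 5.22% (without PC61 replicate 3) to 19.7% (without PC61 replicate 2). The further count was 44 without PBS replicate 4 and PC61 replicate 4 together, and 2 of those genes were called lower with array weights, against 0. With the replicate block limma called 0 of the 34 and 0 of the 109 genes higher, and 0 of all genes, although 32 of the 34 and 3049 of all genes had an unadjusted p under 0.05 and the median was 1.92. No label says that the numbers pair the samples, so this fit is not the one reported. The cause of the lower counts without single arrays was not tested. Dim values near background limit the folds of Tgm3, Fgfbp1 and Jup.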
